A study of Mus musculus with 12 samples.

Results

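RNA from the striatum of mice given SN-011 after occlusion of the middle cerebral artery was compared with RNA from sham-operated mice. The comparison used the 3 libraries titled SN011 without a prefix and the 3 libraries titled sham, chosen by these titles, which are 6 of the 12 libraries in the series. All mice were of the C57BL/6J strain. The sham group had a sham operation and PBS (phosphate-buffered saline), and the SN-011 group had tMCAO (transient middle cerebral artery occlusion) and SN-011, an antagonist of the DNA-sensing adaptor STING. The 3 libraries of the vehicle group, with tMCAO and PBS, are given beside these values. A further 3 libraries with the prefix 3d had the same treatment label as the SN-011 group. They were not compared, but entered the filter on low counts, the scaling and the estimate of the spread. The SN-011 group differs from sham in both the occlusion and the compound, so the parts played by these cannot be told apart in this comparison. The labels state no age, sex, dose or time after occlusion, and do not tie any library to an animal. The p-values therefore measure the spread between these samples, which may be technical.

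Transient occlusion of this artery deprives the striatum of blood and then restores it, and the injured tissue is known for activated microglia, astrocytes that turn reactive and the loss of neurons. DNA that reaches the cytosol is bound by cGAS, which makes a cyclic dinucleotide that STING senses. STING then recruits the kinase TBK1, which activates the transcription factor IRF3, and type I interferon made in response switches on the interferon-stimulated genes.

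The SN-011 and sham libraries held from 17178178 to 17476546 counted reads each, and mitochondrially encoded genes took 6.01% to 6.32% of them in sham and 4.67% to 5.46% in SN-011. Of 13 mitochondrially encoded genes 7 lay below sham in every SN-011 library (53.8%, against 12.9% of all genes tested), 0 lay above it and 0 were called, and the part of this difference in other results was not tested. Values are CPM scaled by TMM (trimmed mean of M values), fold changes are SN-011 against sham on the log2 scale, and adjusted p-values are from the edgeR quasi-likelihood test over the 18537 genes with enough counts. The striatal identity of the tissue was checked with 7 markers of striatal projection neurons, whose summed level was 7624 to 8172 CPM in sham and 4459 to 8104 CPM in SN-011. The SN-011 libraries differed among themselves more than the sham libraries did: a chi-square test of counts between pairs of replicates, over its degrees of freedom, gave 13.9 to 57.3 in SN-011 and 4.79 to 8.85 in sham. In bulk tissue a change in the number of cells of a type and a change in RNA per cell cannot be told apart.

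In the SN-011 group 21 genes rose against sham and 0 fell at an adjusted p under 0.05 (edgeR quasi-likelihood test), which is 0.113% of the genes tested. They included 6 genes from the list of reactive astrocytes, 4 from that of activated microglia and phagocytes, 3 from complement and 2 from the interferon-stimulated genes, and the haem-degrading enzyme gene Hmox1. The lists overlap: Serping1 is counted under both reactive astrocytes and complement, and Cxcl10 under both reactive astrocytes and interferon-stimulated genes. Of the 21, 15 belonged to at least 1 of the gene lists used here and 6 to none: A2m, Slc11a1, Plin3, Ifi30, Fcgr4 and Csf2rb2. All 21 lay higher in every SN-011 library than in every sham library. Before adjustment 1807 genes were higher and 561 lower at p under 0.05 (edgeR), and DESeq2 called 606 higher and 32 lower. The 21 calls rested on all 3 sham libraries: with sham replicate 1, 2 or 3 left out, edgeR called 0 genes, with smallest adjusted p-values of 0.0685, 0.124 and 0.084. With SN-011 replicate 1 left out it called 18 genes, 11 of them among the 21; without replicate 2 it called 694, and without replicate 3 it called 37, 18 of them among the 21. With only the 6 sham and SN-011 libraries in the fit, a planned choice, 7 genes were called, 6 of them among the 21, and 15 of the 21 were lost. With only the 5 sham and SN-011 libraries other than SN-011 replicate 3 in the fit, a choice made after the data were seen, 192 genes were called, 166 higher and 26 lower, and these held all 21.

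**Figure D1:**
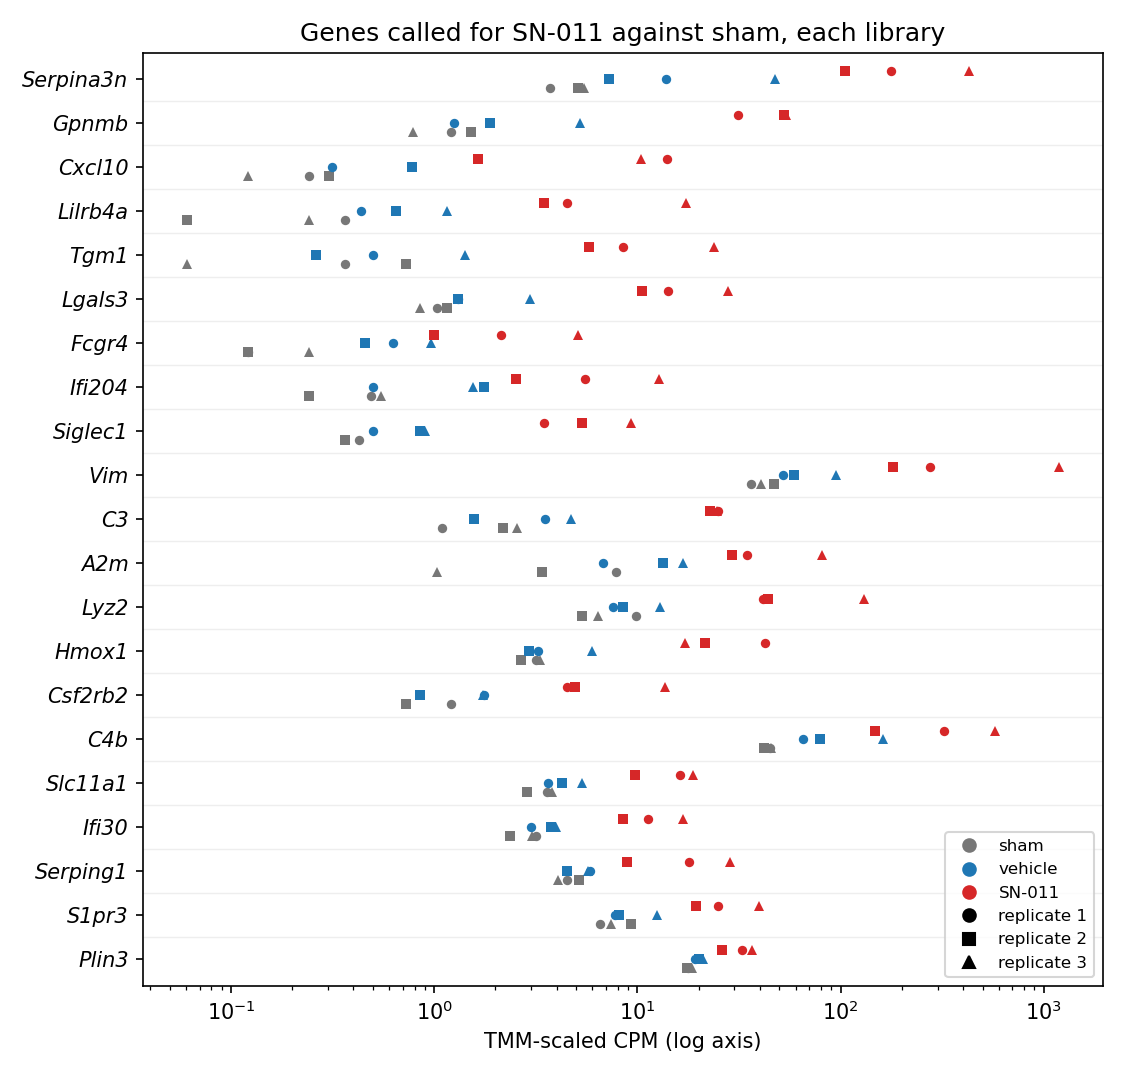
Each row is a gene called for SN-011 against sham, and each point is a library, with TMM-scaled CPM on a log axis; colours give the group (sham, vehicle, SN-011) and marker shapes the replicate. In all 21 genes the 3 SN-011 points lie to the right of the 3 sham points, and SN-011 replicate 3 is the highest of its group in 18.

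The SN-011 libraries were unequal in these genes, as the plot of the called genes shows. Replicate 3 was the highest in 18 of the 21 genes, and replicate 1 in the other 3, which were C3, Hmox1 and Cxcl10. Replicate 2 was the lowest in 16. The median of the called genes over the sham mean was 2.74 on the log2 scale in replicate 1, 2.13 in replicate 2 and 3.69 in replicate 3. Over all genes tested replicate 3 was the highest in 39.1%.

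The vehicle libraries, which went through occlusion without the compound, were above every sham library in 9 of these 21 genes and overlapped sham in the others. The share of all genes tested with vehicle above sham was not counted, so the 9 has no share to be set against. In 20 of the 21 every SN-011 library was above every vehicle library, as in 9.01% of all genes tested, and C4b was the exception; the genes were chosen for high levels in SN-011. Vehicle replicate 3 was the highest of its group in 17. C3 and Siglec1 were also called against vehicle (adjusted p = 0.0414 for each, edgeR), within 3 calls in all (0.0162% of genes tested), 2 of them higher (0.0108%) and 1 lower (0.00539%). With any 1 vehicle library left out, edgeR called 0 genes for SN-011 against vehicle. For vehicle against sham it called 0 genes, with 467 at an unadjusted p under 0.05, and DESeq2 called 5. The comparisons with sham share the sham libraries, and those with SN-011 share the SN-011 libraries.

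Promoters of called genes are printed to show the letters upstream of a secreted astrocyte gene, a phagocyte receptor and an interferon-responsive chemokine. They run from 250 bases before to 50 after the RefSeq start, 5′ to 3′ on the gene's strand, from build GRCm38.p6. Capitals mark matches to the motifs named below. Serpina3n lies on the plus strand and its window is chr12:104406458-104406757. Fcgr4 lies on the plus strand at chr1:171018676-171018975. Cxcl10 lies on the minus strand at chr5:92348840-92349139.
Serpina3n: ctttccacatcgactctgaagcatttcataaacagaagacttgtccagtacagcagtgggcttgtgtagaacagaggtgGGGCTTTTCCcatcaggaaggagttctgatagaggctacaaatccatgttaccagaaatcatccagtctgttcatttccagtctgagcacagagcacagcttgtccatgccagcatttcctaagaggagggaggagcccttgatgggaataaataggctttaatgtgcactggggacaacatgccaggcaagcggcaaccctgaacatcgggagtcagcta
Fcgr4: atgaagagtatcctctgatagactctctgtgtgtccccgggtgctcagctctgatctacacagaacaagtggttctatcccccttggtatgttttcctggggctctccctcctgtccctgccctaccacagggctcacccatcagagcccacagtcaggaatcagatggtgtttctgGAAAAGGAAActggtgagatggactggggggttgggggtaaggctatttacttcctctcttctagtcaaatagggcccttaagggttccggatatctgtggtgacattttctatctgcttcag
Cxcl10: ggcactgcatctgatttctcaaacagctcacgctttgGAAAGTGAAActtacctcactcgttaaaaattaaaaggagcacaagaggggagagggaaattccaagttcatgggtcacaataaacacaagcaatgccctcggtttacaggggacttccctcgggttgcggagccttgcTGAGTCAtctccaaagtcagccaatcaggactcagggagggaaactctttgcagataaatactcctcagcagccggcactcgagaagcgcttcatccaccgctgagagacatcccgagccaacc

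Of the 21 called genes 14 had a RefSeq promoter in the table used, among 32851 promoters in all, and 5 motifs were searched on both strands. The interferon-stimulated response element (GAAA, any 2 bases, GAAA) was found in 3 of the 14, Tgm1, Fcgr4 and Cxcl10, and in 3.44% of all promoters. In Cxcl10 it starts at base 38 of the window and in Fcgr4 at base 178. The NF-kB element (GGG, any 2 bases, TTTCC) was found in Serpina3n, at base 80, and in Vim, and in 1.63% of all promoters. The AP-1 element (TGANTCA) was found in Gpnmb and Cxcl10 and in 7.81% of all promoters. The CLEAR element of lysosomal genes (TCACGTGA) was found in Ifi30 and in 0.974% of all promoters, and the STAT element (TTCCNGGAA) in 0 of the 14 and in 1.15% of all. A match describes letters only; binding was not measured.

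Reactive astrocyte genes held the most calls of any list. Of 26 genes, all tested, 6 rose: Vim, Serpina3n, Tgm1, S1pr3, Serping1 and Cxcl10. Serping1 and Cxcl10 also belong to other lists. In 20 of the 26 (76.9%) every SN-011 library was above every sham library, against 12.8% of all genes tested, and in 0 was it below. The members of this and the other lists were chosen with earlier results of these data known. The list shares given here and below therefore describe the lists and do not test them. The median log2 fold change of the list was 2.05, against 0.00 for all genes, and it was 1.53 without SN-011 replicate 3. By library the list stood at 1.67, 1.13 and 2.35 above the sham mean in SN-011 replicates 1 to 3, and at 0.12, 0.10 and 0.61 in the vehicle replicates.

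Serpina3n (chr12:104406729-104414329), which encodes a secreted serine protease inhibitor of reactive astrocytes, stood at 3.70, 5.09 and 5.44 CPM in the sham libraries and at 178, 105 and 430.1 CPM in the SN-011 libraries. The groups were far apart, and vehicle lay between them at 13.7, 7.22 and 47.3 CPM. Its log2 fold change was 5.65 (SE 0.71, adjusted p = 0.0157, edgeR), and it was 4.90 without SN-011 replicate 3. Vim (chr2:13573927-13582826), an intermediate filament, was at 36.2, 47.2 and 40.5 CPM in sham and at 276, 181 and 1187 CPM in SN-011. SN-011 replicate 3 alone made up most of the SN-011 sum, and the log2 fold change of 3.73 (SE 0.60, adjusted p = 0.0348, edgeR) became 2.47 without it.

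Tgm1 (chr14:55700009-55713926), a transglutaminase that cross-links proteins, had 0.364, 0.727 and 0.0605 CPM in sham and 8.49, 5.79 and 23.9 CPM in SN-011. Its level was low in all sham libraries and highest in SN-011 replicate 3, with a log2 fold change of 5.03 (SE 0.69, adjusted p = 0.0282, edgeR), of 4.19 without that replicate and of 5.86 without sham replicate 2. S1pr3 (chr13:51408639-51422797), a receptor for sphingosine-1-phosphate, went from 6.55, 9.27 and 7.38 CPM in sham to 24.96, 19.4 and 39.8 CPM in SN-011. Vehicle, at 7.75, 8.13 and 12.4 CPM, overlapped sham for S1pr3.

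Gfap, the astrocyte intermediate filament used to see reactive cells, did not pass the test. Its level was 85.6, 104 and 133 CPM in sham and 1214, 413 and 3644 CPM in SN-011 (log2 fold change 4.03, SE 0.73, adjusted p = 0.0547, edgeR). All SN-011 libraries were above all sham libraries, with a wide spread within SN-011. The other list members above sham in every library included Lcn2, a secreted iron-carrier protein, for which replicate 1 was the highest: it was 25.3, 9.48 and 3.67 CPM in SN-011 replicates 1 to 3, against 1.46, 0.849 and 0.242 CPM in sham (adjusted p = 0.0600, edgeR). Nes, Cp, S100a10, Sphk1, Tm4sf1 and Fbln5 overlapped between the groups. Of 15 genes of resting astrocyte functions 0 were called and 6 lay above sham (40%, against 12.8% of all genes tested). Below it lay 2, Gpc5 and Slc6a11 (13.3%, near the 12.9% of all genes tested). The median of the 15 genes was 0.24, or 0.01 without SN-011 replicate 3. Among them Aqp4, the water channel of astrocyte end-feet, was at 108, 114 and 113 CPM in sham and at 198, 152 and 424 CPM in SN-011 (adjusted p = 0.202, edgeR).

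**Figure D2:**
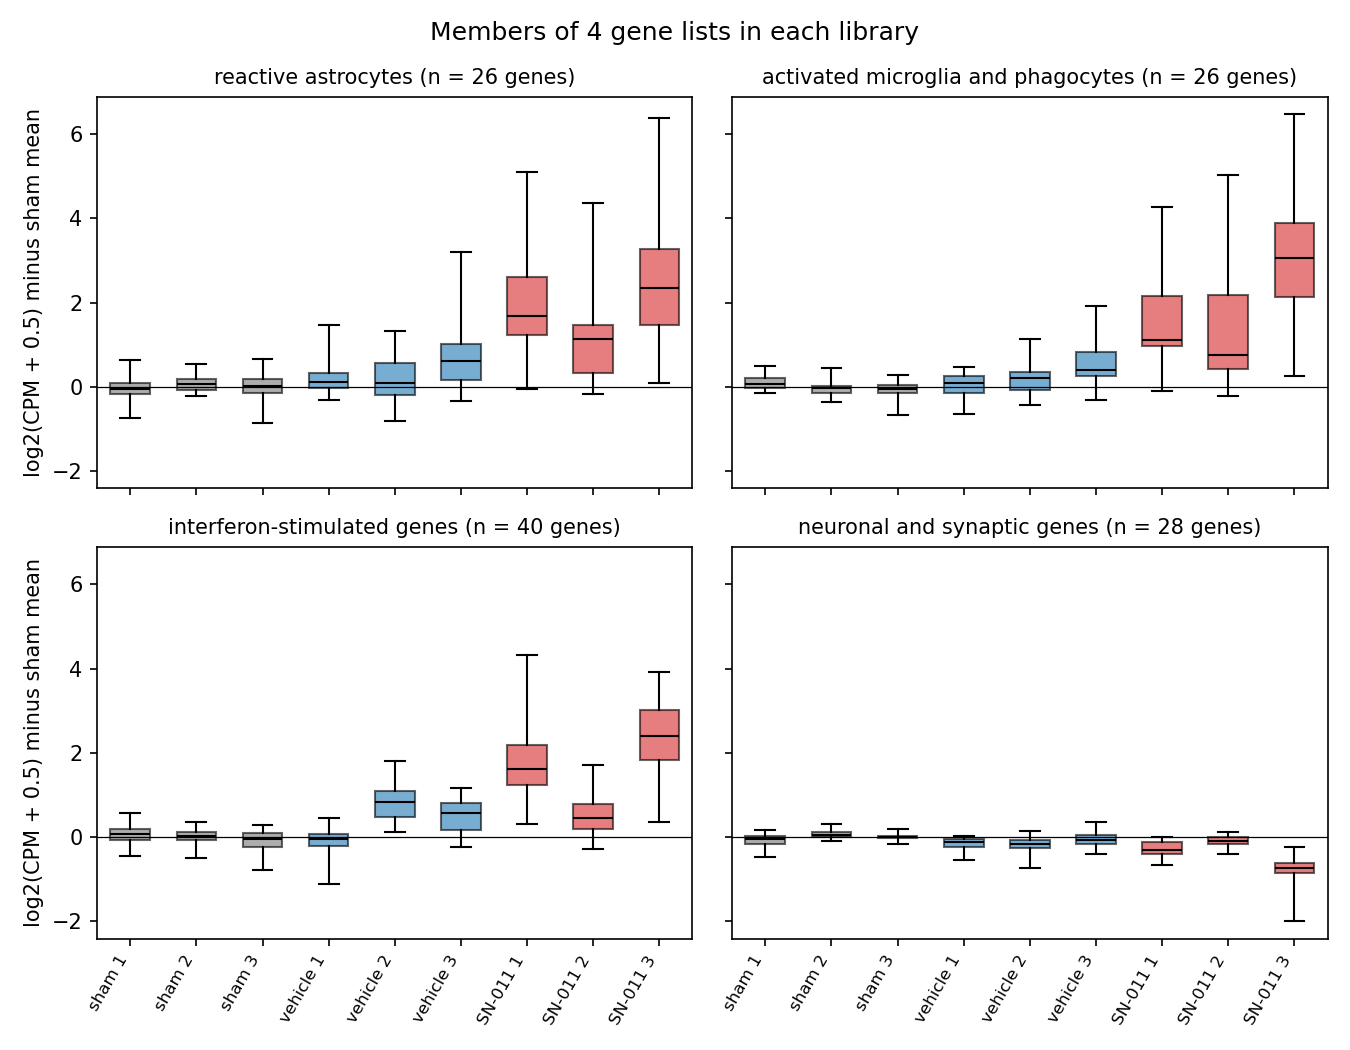
Boxes show the members of 4 gene lists in each library as log2(CPM + 0.5) minus the sham mean, with the median as a line, the quartiles as the box and the lowest and highest member as whiskers. In the astrocyte, microglial and interferon lists the medians of SN-011 replicates 1 and 3 lie above those of all sham and vehicle libraries, and in the neuronal list SN-011 replicate 3 is lowest, at a median of -0.74.

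The median log2 fold change over genes of activated microglia and phagocytes was 2.19, and 24 of the 26 tested lay above sham in every SN-011 library (92.3%, against 12.8% of all genes tested). Of these 4 rose: Gpnmb, Lgals3, Lyz2 and Lilrb4a. The list stood at 1.11, 0.75 and 3.05 above the sham mean in SN-011 replicates 1 to 3, and its median was 1.08 without replicate 3, below the 1.53 of reactive astrocytes. In vehicle it stood at 0.08, 0.20 and 0.41.

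Gpnmb (chr6:49036546-49070929), a transmembrane glycoprotein of phagocytic cells, was at 1.21, 1.52 and 0.786 CPM in sham and at 31.1, 52.9 and 53.9 CPM in SN-011. The SN-011 libraries were close to each other here, and the log2 fold change was 5.29 (SE 0.85, adjusted p = 0.0348, edgeR). Lgals3 (chr14:47367751-47386160), galectin-3, was at 1.03, 1.15 and 0.847 CPM in sham and at 14.2, 10.5 and 27.8 CPM in SN-011, a log2 fold change of 4.11. Lyz2 (chr10:117277331-117282321), a lysozyme, was at 9.89, 5.33 and 6.41 CPM in sham and at 41.6, 43.99 and 129.9 CPM in SN-011. SN-011 replicate 3 stood well above the other two for Lyz2, and its log2 fold change of 3.32 was 2.57 without that library. Lilrb4a (chr10:51490956-51496611), an inhibitory immune receptor, had a log2 fold change of 5.20, or 4.12 without SN-011 replicate 3. Lyz2 and Lilrb4a have close paralogs, and how the counting shared reads between copies is not known.

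Spp1, the secreted phosphoprotein osteopontin, and Clec7a, a receptor for fungal glucans, were among the 10 genes with the widest gap above sham but did not pass the test. Spp1 was at 3.15, 4.06 and 3.45 CPM in sham and at 43.2, 98.4 and 59.6 CPM in SN-011 (adjusted p = 0.0574, edgeR), with replicate 2 the highest. Clec7a was at 0.303, 0.182 and 0.302 CPM in sham and at 6.82, 4.68 and 41.4 CPM in SN-011 (adjusted p = 0.0517). Cst7, an inhibitor of lysosomal cathepsins, had 3 counts in all sham libraries and 965 in the SN-011 libraries, a ratio of 302.5 with an exact 95% binomial interval of 103.2 to 1469 that covers counting error only. Its CPM in SN-011 was 1.96, 2.57 and 48.6, so replicate 3 supplied most of these counts (adjusted p = 0.0890).

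The other called genes of phagocytes belonged to no microglial list, or to that of monocytes and border macrophages. Siglec1 (chr2:131069220-131086765), a sialic acid-binding receptor of macrophages, was at 0.425, 0.364 and 0.363 CPM in sham and at 3.47, 5.32 and 9.32 CPM in SN-011. It was low and even in sham, and its log2 fold change was 3.95 (SE 0.45, adjusted p = 0.00870, edgeR). Fcgr4 (chr1:171018920-171029761), a receptor for immunoglobulin G whose promoter is printed above, was at 0.121, 0.121 and 0.242 CPM in sham and at 2.14, 0.994 and 5.10 CPM in SN-011, a log2 fold change of 4.03, or 3.22 without SN-011 replicate 3.

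Slc11a1 (chr1:74375195-74386062), a metal transporter of phagosomes, rose by 2.12 on the log2 scale (SE 0.33), and Ifi30 (chr8:70762774-70766663), a lysosomal thiol reductase that the annotation types as a processed transcript, by 2.09 (SE 0.32). Csf2rb2 (chr15:78282507-78305721), a subunit of the interleukin-3 receptor with a close paralog, rose by 3.11, or by 2.40 without SN-011 replicate 3. A2m (chr6:121635376-121679227), a protease trap, rose by 3.56. Among the sham libraries A2m varied more than Slc11a1, Ifi30, Csf2rb2 and Plin3 did, at 7.89, 3.39 and 1.03 CPM. Its change was 2.96 when SN-011 replicate 3 was left out and 4.45 when sham replicate 1 was. Plin3 (chr17:56277476-56292873) had the smallest change of the 21, 0.82 (SE 0.13), from 17.8, 17.6 and 18.6 CPM in sham to 32.5, 26.03 and 36.5 CPM in SN-011. The adjusted p was 0.0348 for each of these genes (edgeR).

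The summed markers of monocytes and border macrophages, of neutrophils and of lymphocytes overlapped between the groups. The summed level of 4 markers of monocytes and border macrophages was 15.95 to 19.4 CPM in sham and 11.3 to 19.97 CPM in SN-011, and 0 of the 4 were above sham in every library. The 4 went both ways: the log2 fold change was 2.72 for Ly6c2 (adjusted p = 0.310, edgeR) and 0.76 for Ccr2. It was -0.51 for Mrc1 and -0.33 for Cd163. Cd163 had the most counts, 681 in sham and 573 in SN-011, so the sum mainly follows Cd163. Of 12 tested genes in the list of these cells 3 were above sham (25%, against 12.8% of all genes), Siglec1, Stab1 and Plac8, with a median log2 fold change of 0.93 (0.74 without SN-011 replicate 3), and 1 was called. The summed level of 3 neutrophil markers was 0.363 to 1.03 CPM in sham and 0.328 to 0.467 CPM in SN-011, with Ly6g at 0 in all 6 libraries, and of 11 neutrophil genes 1 had enough counts to test, S100a9, with a log2 fold change of -0.46 that turned to 0.21 without sham replicate 3. For lymphocytes the summed level of 3 markers was 0.182 to 0.665 CPM in sham and 0.409 to 1.15 CPM in SN-011, and 0 of 7 tested genes were called or above sham. Their median was 0.51, or 0.01 without SN-011 replicate 3, and it turned to -0.25 with only 6 or 9 libraries in the fit.

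Resident microglia were described by 16 homeostatic genes, of which 0 were called and 11 lay above sham (68.8%, against 12.8% of all genes), with a median of 0.93, or 0.40 without SN-011 replicate 3. Cx3cr1, the fractalkine receptor, was at 80.6, 73.4 and 77.4 CPM in sham and at 109.9, 81.2 and 276 CPM in SN-011. P2ry12, the purine receptor that marks resting microglia, overlapped between the groups, at 45.4, 42.8 and 40.5 CPM in sham and 42.5, 37.5 and 84.99 CPM in SN-011. Trem2, a lipid-sensing receptor, was at 16.1, 14.7 and 16.7 CPM in sham and at 34.8, 24.7 and 142 CPM in SN-011 (log2 fold change 2.09, adjusted p = 0.101, edgeR).

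The median log2 fold change over complement genes was 2.01, with 12 of 17 tested above sham in every library (70.6%, against 12.8% of all genes) and 3 called, C3, C4b and Serping1. The median was 1.23 without SN-011 replicate 3. C3 (chr17:57203970-57228136), the central component of the cascade, was at 1.09, 2.18 and 2.54 CPM in sham and at 24.8, 22.9 and 24.7 CPM in SN-011. It was nearly the same in the 3 SN-011 libraries, unlike most called genes, and it shared the smallest adjusted p with Siglec1 (log2 fold change 3.63, SE 0.40, adjusted p = 0.00870, edgeR). Vehicle was at 3.50, 1.56 and 4.70 CPM, which overlapped sham.

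C4b (chr17:34728380-34743882), a component of the classical pathway, was at 44.7, 42.2 and 45.7 CPM in sham and at 323, 149 and 576 CPM in SN-011, a log2 fold change of 2.98 (SE 0.44). The vehicle libraries, at 65.3, 79.3 and 161 CPM, were all above sham, and the highest of them was above SN-011 replicate 2. Its near-identical copy C4a did not follow it, at 6.43, 5.21 and 5.26 CPM in sham and 5.55, 7.49 and 5.21 CPM in SN-011, though reads of the copies could be shared. Serping1 (chr2:84765387-84775444), the C1 inhibitor, was at 4.49, 5.15 and 4.05 CPM in sham and at 17.9, 8.83 and 28.5 CPM in SN-011, a log2 fold change of 2.01 (SE 0.32). C4b and Serping1 each had an adjusted p of 0.0348 (edgeR). The C1q chains of microglia did not pass: C1qa was at 36.9, 28.9 and 31.6 CPM in sham and at 99.2, 77.4 and 380.2 CPM in SN-011 (adjusted p = 0.0658).

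Interferon-stimulated genes had positive fold changes, few of which passed the test. All 40 tested had a positive fold change, 27 lay above sham in every SN-011 library (67.5%, against 12.8% of all genes), and 2 were called, Ifi204 and Cxcl10. The median log2 fold change was 1.98, and 1.38 without SN-011 replicate 3. By library the median over the sham mean was 1.63, 0.46 and 2.41 in SN-011 replicates 1 to 3 and -0.05, 0.84 and 0.57 in the vehicle replicates, so SN-011 replicate 2 lay below vehicle replicates 2 and 3.

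Cxcl10 (chr5:92346638-92348889), a chemokine for T cells whose promoter holds the interferon element printed above, was at 0.243, 0.303 and 0.121 CPM in sham and at 13.98, 1.64 and 10.4 CPM in SN-011. Replicate 2 was far below the other SN-011 libraries and still above sham (log2 fold change 5.24, SE 0.86, adjusted p = 0.0388, edgeR). Ifi204 (chr1:173747293-173766943), a DNA-binding protein of the interferon-inducible HIN-200 family with close paralogs, was at 0.485, 0.242 and 0.544 CPM in sham and at 5.55, 2.52 and 12.7 CPM in SN-011. Its log2 fold change was 4.01 (SE 0.63, adjusted p = 0.0348), or 3.23 without SN-011 replicate 3.

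Oas3, an antiviral oligoadenylate synthetase, had 0 counts in the sham libraries and 138 in the SN-011 libraries. Against a floor of 3 counts over the sham group it was at least 43.25-fold higher, and it did not pass the test (adjusted p = 0.0517, edgeR). Irf7, a transcription factor of the interferon response, was at 2.31, 3.15 and 2.24 CPM in sham and at 15.3, 4.62 and 31.3 CPM in SN-011 (adjusted p = 0.0741). Irf7 was chosen after its values were seen, and replicate 2 was again the lowest of the SN-011 libraries.

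The genes of the cGAS-STING pathway itself differed less. Of 18 listed, 16 were tested, 7 lay above sham (43.8%, against 12.8% of all genes) and 1 below, and the median log2 fold change was 0.42, or 0.23 without SN-011 replicate 3. Ifi204 was the 1 called. Tmem173, the gene of STING, was at 3.88, 4.18 and 4.11 CPM in sham, at 3.37, 4.82 and 4.44 CPM in vehicle and at 6.76, 5.44 and 14.8 CPM in SN-011. The SN-011 libraries were above both other groups, but the log2 fold change of 1.15 (SE 0.40) did not pass (adjusted p = 0.229, edgeR).

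Cgas, the DNA sensor, was at 1.46, 2.000 and 0.726 CPM in sham and at 2.20, 2.34 and 4.33 CPM in SN-011 (adjusted p = 0.225, edgeR). Tbk1, the kinase that STING recruits, was slightly lower in every SN-011 library, at 44.1, 46.6 and 42.5 CPM against 54.4, 50.4 and 48.8 CPM in sham (log2 fold change -0.20, SE 0.15, adjusted p = 0.621). Irf3, its target, was at 19.9, 19.7 and 20.4 CPM in sham and 25.7, 23.8 and 27.5 CPM in SN-011 (log2 fold change 0.36, SE 0.18, adjusted p = 0.426). Ifnb1, interferon beta, had 0 counts in the sham, vehicle and SN-011 libraries, and Trex1, the nuclease that degrades cytosolic DNA, was likewise listed at 0. How the counting treated reads shared between genes is not known, so a listed 0 need not mean that the transcript was absent. STING and cGAS protein or activity was not measured here.

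Many cytokine and chemokine genes had few counts. Of 30 listed, 23 had enough counts, 10 lay above sham (43.5%, against 12.8% of all genes) and Cxcl10 was the 1 called, with a median log2 fold change of 1.74, or 1.26 without SN-011 replicate 3. Ccl12, a ligand of the monocyte receptor CCR2, was at 0.243, 0.121 and 0.242 CPM in sham and at 4.10, 0.760 and 5.97 CPM in SN-011 (log2 fold change 4.12, adjusted p = 0.0547, edgeR). Ccl4 had 1 count in the sham libraries and 89 in SN-011, a ratio of 83.7 with an exact 95% binomial interval of 14.6 to 3342 for counting error only, and it did not pass the test (adjusted p = 0.0744, edgeR). Tnf and Il1b, early inflammatory cytokines, overlapped between the groups, and Il6 had too few counts to test.

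Genes of antigen presentation, cell death and the cell cycle held 0 calls each, of 21, 23 and 30 tested. Above sham in every library were 12 (57.1%), 12 (52.2%) and 15 (50%) of them, against 12.8% of all genes tested, and their medians were 1.37, 0.97 and 1.00. Without SN-011 replicate 3 the medians were 0.76, 0.53 and 0.42. Tap1, which moves peptides to class I molecules, was at 3.88, 3.70 and 2.90 CPM in sham and at 12.6, 6.32 and 26.4 CPM in SN-011 (adjusted p = 0.0592, edgeR). Ccnb1, the mitotic cyclin B1, was at 1.09, 1.82 and 1.88 CPM in sham and at 3.58, 4.62 and 11.8 CPM in SN-011 (adjusted p = 0.0744). Casp4, an inflammatory caspase, overlapped because SN-011 replicate 2, at 0.585 CPM, was below sham replicate 2, at 0.606 CPM.

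Among the genes of heat shock, hypoxia and oxidative stress, Hmox1 rose. Of 23 tested, 6 were above sham (26.1%, against 12.8% of all genes) and 1 below, and the median was 0.07. Hmox1 (chr8:75093621-75100589), which degrades haem, was at 3.15, 2.67 and 3.33 CPM in sham, at 3.25, 2.93 and 5.98 CPM in vehicle and at 42.6, 21.4 and 17.1 CPM in SN-011. Here replicate 1 was the highest, and the log2 fold change was 3.15 (SE 0.40, adjusted p = 0.0157, edgeR; against vehicle 0.0515). Atf3, an injury-induced transcription factor, was at 0.667, 0.546 and 1.15 CPM in sham and at 2.95, 3.33 and 8.44 CPM in SN-011 (adjusted p = 0.0748). The summed level of 3 red blood cell markers was 64.1 to 93.98 CPM in sham, 134.5 to 141.6 CPM in vehicle and 95.1 to 136 CPM in SN-011. Among these markers Hbb-bs and Alas2 overlapped between SN-011 and sham. The haemoglobin gene Hba-a1 was at 44.3, 31.8 and 43.01 CPM in sham and 58.8, 68.4 and 44.7 CPM in SN-011, and the part of blood left in the tissue in the level of Hmox1 was not tested.

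**Figure D3:**
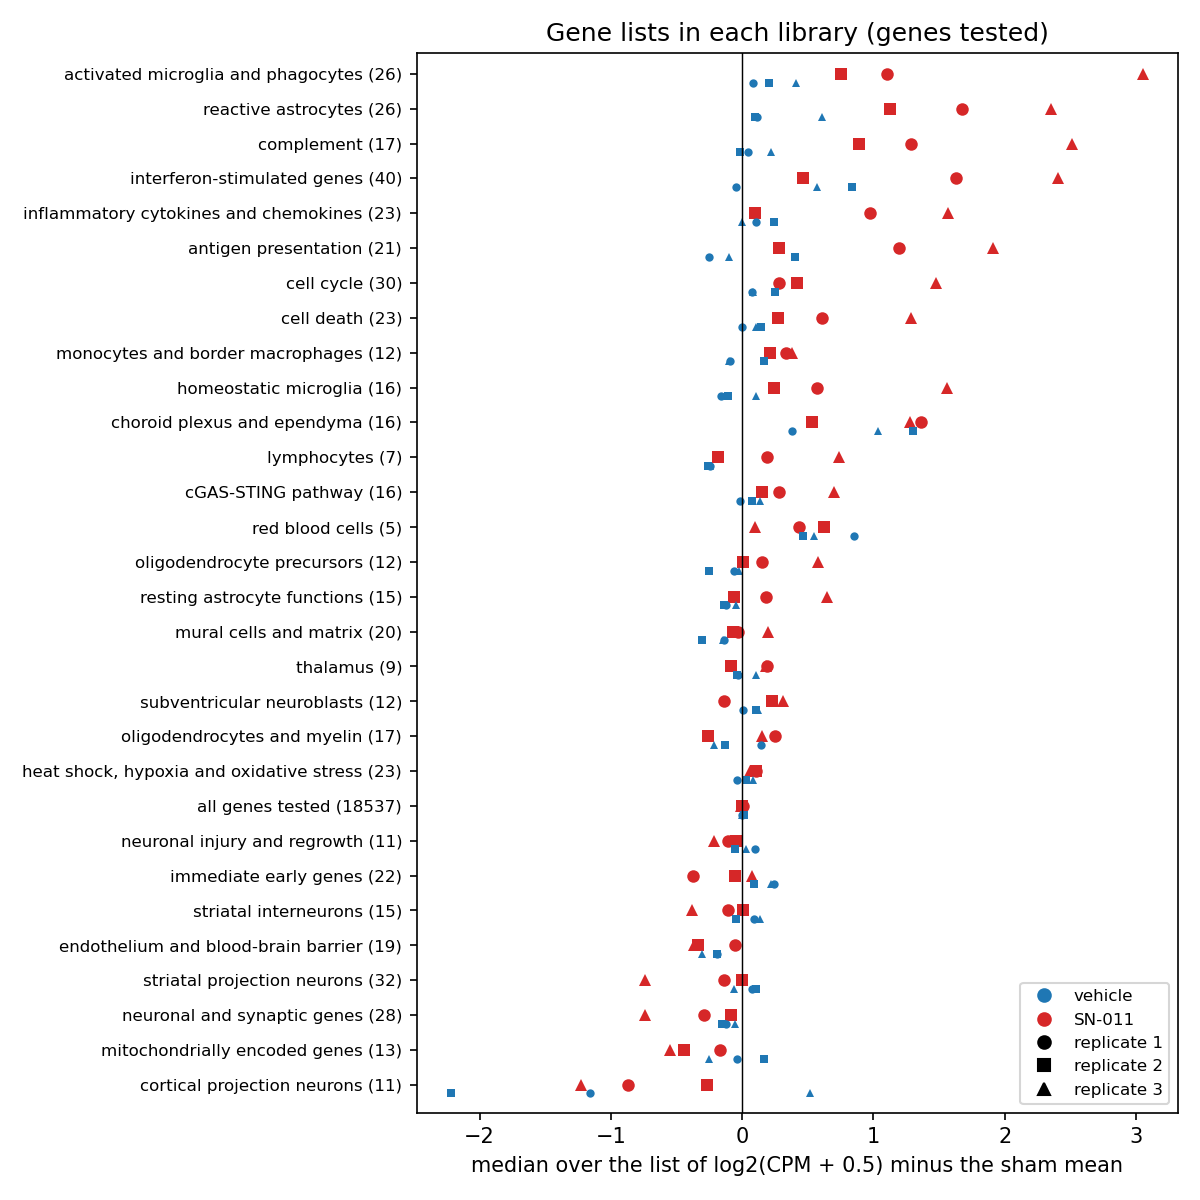
For each gene list (number of genes tested in brackets) and for all genes, points give the median of log2(CPM + 0.5) minus the sham mean in each SN-011 library (red) and each vehicle library (blue), with marker shapes for the replicate; the neutrophil list, with 1 gene tested, is not drawn. Lists are sorted by their median log2 fold change against sham, from cortical projection neurons at -1.04 to activated microglia and phagocytes at 2.19.

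Neuronal genes had small negative differences, none past the test. All 28 neuronal and synaptic genes tested had a negative fold change, 13 lay below sham in every SN-011 library, against 12.9% of all genes, and 0 were called. The median was -0.34, and -0.18 without SN-011 replicate 3. By library it was -0.29, -0.08 and -0.74 relative to the sham mean, as the boxes of list members show. Snap25, a protein of synaptic vesicle fusion chosen after its values were seen, was at 974, 1265 and 1131 CPM in sham and at 846, 909 and 618 CPM in SN-011 (adjusted p = 0.409, edgeR).

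Striatal projection neurons, the main output neurons of this region, had 32 genes tested, of which 9 lay below sham (28.1%, against 12.9% of all genes), 0 above and 0 were called, with a median of -0.26, or -0.06 without SN-011 replicate 3. Ppp1r1b, their phosphoprotein DARPP-32, was at 1571, 1363 and 1378 CPM in sham and at 1741, 1624 and 967 CPM in SN-011. Drd1, the D1 dopamine receptor, was at 315, 293 and 309 CPM in sham and at 259.6, 322 and 190.4 CPM in SN-011. SN-011 replicate 3 was the lowest library for both genes, and replicate 1 was also below every sham library for Drd1. Cnr1, the CB1 cannabinoid receptor, was lower in every SN-011 library, at 397, 434 and 162 CPM against 468, 517 and 512 CPM (adjusted p = 0.538, edgeR). Of 15 interneuron genes 3 lay below sham (20%, against 12.9% of all genes) and 0 above, with a median of -0.18, or -0.08 without SN-011 replicate 3.

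Among genes that were lower in every SN-011 library, the 5 with the smallest p were Cxcl12, Ldb2, Cpne4, Npas4 and Myh11, and none passed the adjusted threshold (adjusted p from 0.0547 to 0.0755, edgeR). Cxcl12 (chr6:117168535-117181367), a chemokine made by endothelial and other resident cells, was at 110.3, 103 and 115 CPM in sham and at 75.5, 72.4 and 54.9 CPM in SN-011. Its log2 fold change was -0.69 (SE 0.13), and the vehicle libraries were as low, at 74.7, 69.2 and 72.97 CPM. Ldb2 (chr5:44472132-44799680), a cofactor of LIM-domain transcription factors, was at 23.5, 25.3 and 26.9 CPM in sham and at 16.9, 16.7 and 16.5 CPM in SN-011. Unlike Cxcl12 it was at the sham level in vehicle, at 26.4, 25.8 and 25.4 CPM (adjusted p = 0.121 for SN-011 against vehicle).

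Npas4 (chr19:4984355-4990316), a transcription factor induced by neuronal activity, was at 66.97, 65.4 and 88.01 CPM in sham and at 33.6, 35.2 and 22.03 CPM in SN-011, and vehicle, at 51.5, 41.5 and 30.95 CPM, lay below sham and overlapped SN-011. Its log2 fold change was -1.28 (SE 0.27). In the list of immediate early genes, which holds Npas4, 4 of 22 tested lay below sham (18.2%, against 12.9% of all genes), 0 above and 0 were called, with a median of -0.11 that turned to 0.13 without sham replicate 3. Nr4a2 had the most negative fold change of that list, -2.28, with uneven sham levels of 6.92, 24.97 and 36.7 CPM. The cortical marker Slc17a7 was also uneven in sham, at 58.5, 298 and 192 CPM. The part of cortical tissue in the level of Nr4a2 was not tested.

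Endothelial genes had small negative medians in both occluded groups. Of 19 genes of endothelium and the blood-brain barrier 9 lay below sham in every SN-011 library (47.4%, against 12.9% of all genes) and 1 above, 0 were called, and the median was -0.22 in SN-011 and -0.23 in vehicle, which share the sham libraries. Slco1a4, an organic anion transporter of the barrier, was at 87.8, 88.2 and 89.1 CPM in sham, at 76.7, 77.7 and 63.6 CPM in vehicle and at 66.8, 62.1 and 74.3 CPM in SN-011 (adjusted p = 0.146, edgeR). Myh11 (chr16:14194535-14291372), the smooth muscle myosin heavy chain, was at 10.5, 10.4 and 9.56 CPM in sham, at 6.75, 5.47 and 6.11 CPM in vehicle and at 5.60, 5.15 and 2.96 CPM in SN-011 (log2 fold change -1.15, SE 0.25). Both occluded groups lay below sham for Myh11 and Slco1a4.

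Rgs5, a regulator of G-protein signalling in pericytes, was at 127, 129.9 and 138 CPM in sham and at 102, 94.6 and 99.9 CPM in SN-011 (adjusted p = 0.128, edgeR). The list of mural cells and matrix as a whole had a median of 0.13, which turned to -0.06 without SN-011 replicate 3, with 4 of 20 below sham (20%) and 3 above (15%), near the shares of all genes tested (12.9% and 12.8%). Among the 10 genes with the widest gap below sham were Slc6a12, a betaine and GABA transporter, at 1.21, 1.15 and 1.27 CPM in sham and 0.578, 0.351 and 0.384 CPM in SN-011, and Gpx6, a glutathione peroxidase, at 5.76, 6.12 and 5.87 CPM in sham and 3.76, 2.92 and 2.19 CPM in SN-011. Neither passed (adjusted p = 0.220 and 0.229, edgeR), and the vehicle libraries overlapped those of SN-011 for both.

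**Figure D4:**
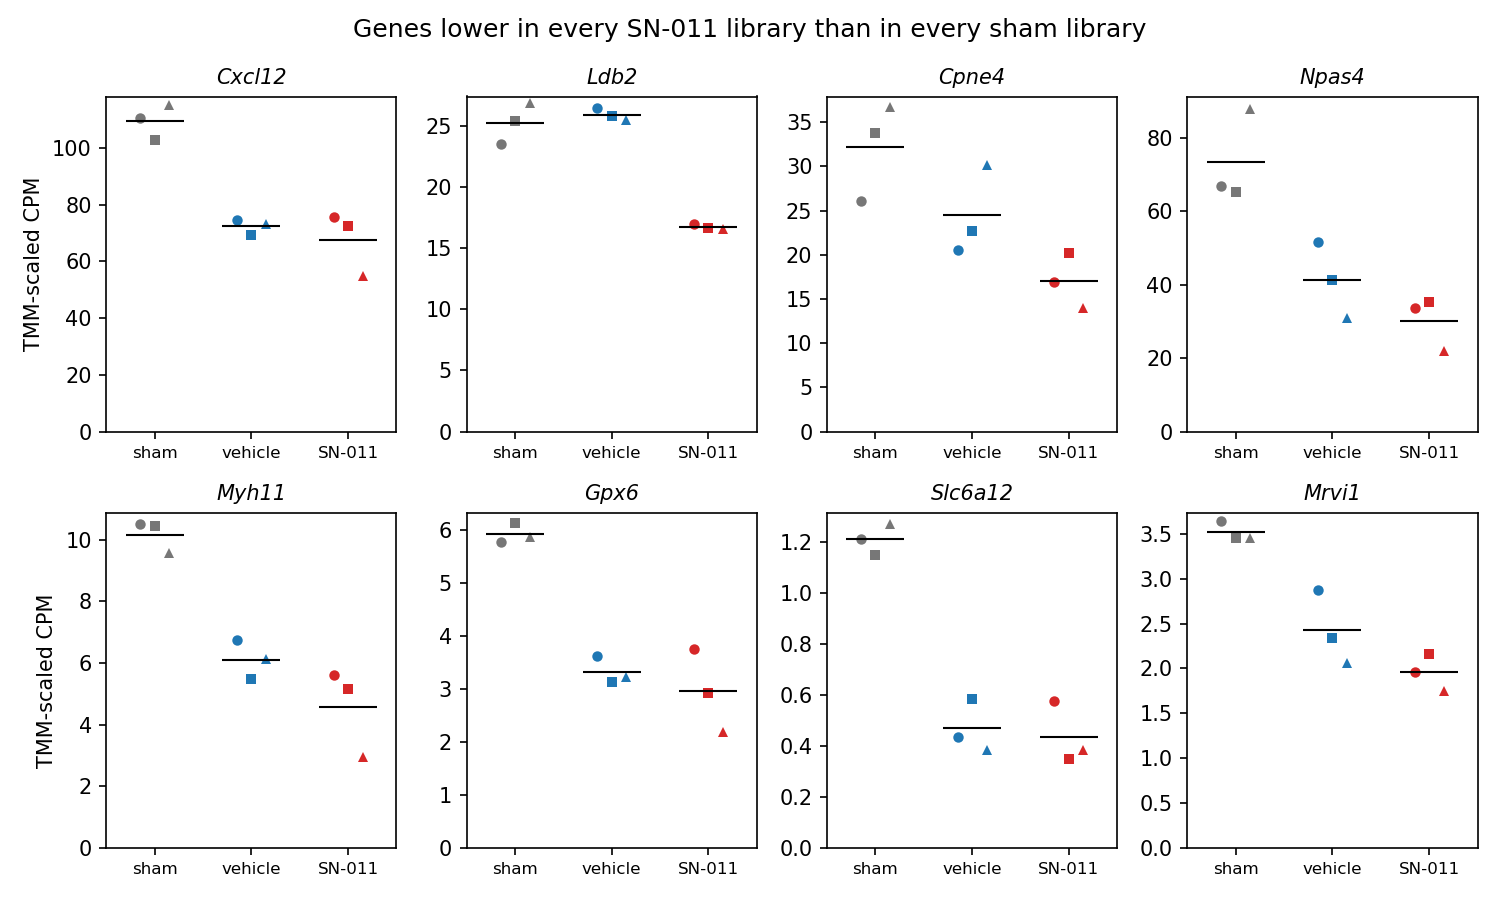
TMM-scaled CPM of 8 genes that lay below sham in every SN-011 library, with a point for each library (marker shapes give the replicate) and a line at the group mean; the axis starts at 0. Vehicle is near SN-011 for Cxcl12, Myh11, Gpx6, Slc6a12 and Mrvi1 and at the sham level for Ldb2.

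The gap between the groups was wider on the higher side than on the lower. Genes above sham in every SN-011 library numbered 2365 (12.8%) and genes below it 2383 (12.9%). Of these the nearest libraries of the groups were at least 2-fold apart, with 0.5 CPM added, in 63 genes above sham (0.34% of genes tested) and in 0 below. Of the 63, 19 were called, 11 belonged to the reactive astrocyte list, 9 to activated microglia and phagocytes, 4 each to complement and to the interferon-stimulated genes, and 33 to no list. The lists of neuronal and synaptic genes, striatal projection neurons, endothelium, oligodendrocytes, the cell cycle and antigen presentation held 0 of them, and that of neuronal injury and regrowth held 1, Atf3.

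Among markers of tissue around the striatum, those of choroid plexus and cortex varied widely between libraries of 1 group. The summed levels of ependyma and thalamus markers separated the groups, though not every single marker did. Choroid plexus markers summed to 104 to 2488 CPM in sham and 1024 to 2974 CPM in SN-011, and cortical projection neuron markers to 74.7 to 379 CPM in sham and 62.2 to 144 CPM in SN-011. The 2 ependyma markers summed to 22.5 to 28.1 CPM in sham and 40.7 to 54.5 CPM in SN-011, and the 3 thalamus markers to 20.2 to 22.9 CPM in sham and 23.1 to 54.4 CPM in SN-011. Of these, 1 of the 2 ependyma markers (Foxj1) and 1 of the 3 thalamus markers (Prkcd) lay above sham in every SN-011 library. The others overlapped, with the thalamus marker Slc17a6 at a log2 fold change of -1.03. None of these marker genes was at 0 in all sham libraries, and their part in the results was not tested. In the longer list of 9 thalamus genes 1 lay above sham (11.1%, near the 12.8% of all genes tested) and 0 below. The list of 16 choroid plexus and ependyma genes had a median of 0.77 in SN-011 and 0.69 in vehicle, with 2 above sham (12.5%, near the 12.8% of all genes tested) and 0 called, and leaving out sham replicate 1 or 3 gave SN-011 medians of 1.42 and 0.35. The median of the 11 cortical genes was -1.04, and leaving out sham replicate 1 or 2 gave -1.48 and -0.55, with 0 above or below sham in every library.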

How the data were processed

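Per the labels' protocols, polyA+ RNA from mouse striatum was sequenced with paired reads. The submitters' processing notes name HISAT2, featureCounts and mm10. Tool versions, the annotation used and whether counting was stranded were not given in the sources used here. As counts the authors deposited the number of reads for each Ensembl gene, whole numbers with no sign of normalization. Each table held the same 54532 genes, 54409 of them with a known symbol, and totals ranged from 15806076 to 18622053 over the 12 libraries. Gene positions are GRCm38 coordinates of GENCODE M21, counted from 1, on build mm10.

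The counts were tested with edgeR 4.0.16 in R 4.3.3 after filterByExpr (minimum count 10, by group). All 12 libraries, scaled by TMM, entered 1 quasi-likelihood fit on group alone, and thus share an estimate of the spread. Calls are genes whose p, adjusted by Benjamini-Hochberg across every tested gene, was under 0.05, and the standard error is the log2 fold change over the root of F. A gene lay above or below sham where no SN-011 library overlapped any sham library. The 30 gene lists held 556 distinct genes. The members and lists were chosen with earlier results of these data known. Genes named are those called (at most 30), the 5 falls with the smallest p without overlap at a mean of at least 1 CPM, the 10 widest gaps each way between nearest libraries, the 3 list members with the smallest p, the core STING pathway genes and the first 2 markers of each cell type; other genes named were chosen after their values were seen, and some genes that the rule names are not reported here.

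On simulated counts for SN-011 against sham over 18180 genes, 50 genes were changed by each fold, all with a mean of at least 50 counts. The test found 14% of those changed 1.5-fold, 72% of those changed 2-fold, 96% for 4-fold and 98% for 8-fold, and 6 of 146 calls were false. Each count was drawn independently, without differences shared by many genes of 1 library, such as those of SN-011 replicate 3. These shares therefore do not carry over to genes with fewer counts or to such uneven libraries. The lists whose medians are not given above had these medians in SN-011 against sham, with 0 called: oligodendrocytes and myelin 0.08 (17 tested), oligodendrocyte precursors 0.29 (12), thalamus 0.09 (9), subventricular neuroblasts 0.09 (12), red blood cells 0.41 (5), neuronal injury and regrowth -0.00 (11), and mitochondrially encoded genes -0.40 (13). Plots used Python 3.11.15 and matplotlib 3.10.9.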

Additional observations from a re-analysis of the deposited data

How the results depend on the processing

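SN-011 against sham gave 21 calls, all higher, and scaling by RLE gave the same 21. DESeq2 1.42.0 called 638 genes (606 higher, 32 lower), edgeR without the filter on low counts 775 (748 and 27), and limma 3.58.1 voom with quality weights 1875 (1145 and 730). A fit of the 6 libraries compared called 7, all higher, with 6 of them among the 21 and 15 of the 21 lost. A fit of 9 libraries without the 3d arm called 39 (35 and 4), which held all 21. Against a 1.5-fold threshold 5 were called, all higher and all among the 21. Chosen after the data were seen, a fit of the 5 libraries without SN-011 replicate 3 called 192 (166 and 26). Leaving out each replicate gave 0 to 694 calls, 0 to 662 higher and 0 to 32 lower; 37 were called, all higher, without SN-011 replicate 3. Genes whose libraries did not overlap numbered 2995 to 4414 above sham and 2961 to 4298 below it on leaving out each replicate. These numbers cannot fall when a library is left out, so they do not test how stable the separation is. For SN-011 against vehicle, with 3 calls, the counts were 443 with DESeq2, 601 without the filter, 5 with 6 libraries, 17 with 9, 1179 with voom, 0 against the threshold and 0 to 513 on leaving out each replicate. For vehicle against sham, with 0 calls, they were 5, 5, 16, 1 and 32 in the same order as far as voom. Deviations of sham and SN-011 libraries with the same replicate number correlated at 0.150, 0.0691 and 0.00442, and those with different numbers at -0.139 to 0.0832. These values do not settle whether the numbers mark a pairing, which the labels do not state. With a replicate block SN-011 against sham gave 28 calls, all higher and 15 of them among the 21, and SN-011 against vehicle gave 19. S100a9 went from -0.46 to between -0.86 and 0.21 on leaving out each replicate, the last without sham replicate 3. The causes were not tested. Over the alternatives 1320 single-gene results stayed on the same side of the threshold, 184 passed it and 113 lost it, and 413 list medians moved by less than the spread between replicates while 34 moved by more. At this depth a gene was tested where it had about 10 counts in at least 3 of the 12 libraries, whatever their group. Some tested genes thus had fewer in the groups compared, such as Ms4a4a with 4 counts in all sham and 11 in all SN-011 libraries.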

Other observations

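Genes named here were chosen after their values were seen. Nr4a3, an immediate early nuclear receptor, was at 18.99, 19.5 and 18.7 CPM in sham and at 14.7, 18.7 and 24.7 CPM in the SN-011 libraries, which overlapped. The vehicle libraries stood apart from both, at 60.6, 61.5 and 53.2 CPM, and it was the 1 gene called lower in SN-011 than in vehicle (log2 fold change -1.59, adjusted p = 0.0414, edgeR). C3ar1, the receptor of the C3a fragment, was at 2.79, 3.52 and 4.72 CPM in sham and at 9.65, 11.1 and 40.3 CPM in SN-011, above sham in every library (adjusted p = 0.0670).

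Of 12 oligodendrocyte precursor genes 0 were called, 3 lay above sham (25%, against 12.8% of all genes tested) and 0 below. Pdgfra, the precursor receptor, was at 62.2, 60.1 and 60.9 CPM in sham and 57.9, 55.5 and 66.5 CPM in SN-011. Gpr17, a receptor of committed precursors, was at 69.8, 66.01 and 71.7 CPM in sham and at 128, 91.95 and 142 CPM in SN-011 (adjusted p = 0.314, edgeR). Bmp4 was at 3.34, 2.30 and 3.27 CPM in sham and at 5.66, 3.57 and 8.38 CPM in SN-011 (adjusted p = 0.157). Gpr17 and Bmp4 lay above both sham and vehicle in every SN-011 library, and Pdgfra overlapped between SN-011 and sham. Mbp, a main myelin gene, overlapped as well.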
